A study of Mus musculus with 7 samples.

Results

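The 10 genes of the DNA replication machinery examined here were Pcna, Pola1, Pola2, Prim1, Prim2, Pold1, Pole, Rpa1, Rpa2 and Fen1. They were taken as a named list, chosen with earlier results of these data known, and matched by Ensembl identifier. All 10 are among the 15531 genes that the authors tested in mouse embryonic fibroblasts (MEFs). RNA had been sequenced from 7 primary MEF lines made from embryos at embryonic day 13.5 and used at passage 4, on plates taken 10 hours after they became confluent. The 4 Df/+Bl6 lines carried Df, a chromosome 4 from 129S5/SvEvBrd with an engineered deletion of 4.3 Mb in band 4E2, opposite an intact chromosome 4 from C57BL/6J. The 3 control lines, +129/+Bl6, had intact chromosomes from the same strains, so both groups were F1 hybrids of 129S5/SvEvBrd and C57BL/6J. The paper describes embryos from Df/Dp male chimeras mated with C57BL/6J females, the chimeras having been made from an engineered ES cell line. For the controls it names F1 +129/+Bl6 crosses, and it does not say whether parents were shared between the groups. The litters and the sex of the embryos are not given in the sources used here.

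These genes act in order at the replication fork. The polymerase alpha-primase complex, with Pola1 as its catalytic subunit, Pola2 as its accessory subunit and Prim1 and Prim2 as the small and large primase subunits, lays down short RNA-DNA primers. Polymerase epsilon (catalytic subunit Pole) is mainly assigned to the leading strand and polymerase delta (catalytic subunit Pold1) to the lagging strand, and both are held on DNA by the sliding clamp PCNA. The single strands exposed by the helicase are covered by RPA, of which Rpa1 and Rpa2 encode the large and middle subunits. The nuclease FEN1 removes displaced flaps so that Okazaki fragments can be joined. In cultured fibroblasts many of these genes are known to be transcribed mainly around the G1/S transition, through E2F factors.

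The measurements are the authors' mean normalized counts for each genotype, in tables that list the genes found DE by the authors with DESeq at an FDR cut-off of 0.05. Such genes are called listed here. A log2 ratio is the log2 of the Df/+Bl6 mean over the +129/+Bl6 mean, computed from those means, so that positive values mean more mRNA in Df/+Bl6. The tables give no value for a single line, so sequencing depth per line is unknown, a mean has no SD, overlap between groups could not be examined, and differences in size between genes were not tested. As a check of the labels, 27 of the 42 tested genes between Rere and Ski, which bracket the deletion, were listed, and all 27 were lower in Df/+Bl6 (median log2 ratio -1.02). For bulk RNA, a smaller share of cells making an mRNA and less mRNA in each cell cannot be told apart.

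In the combined comparison, on counts summed over both alleles, 8 of the 10 genes were listed and all 8 were higher in Df/+Bl6, where 5.13% of all tested genes were listed as higher. Their log2 ratios ran from 0.55 for Pold1 to 1.49 for Pola1, with a median of 0.65, while the median of the 796 genes listed as higher was 0.80. None of the 10 was listed as lower, a call made for 3.54% of the tested genes. The genes not listed were Pola2 and Fen1, which were tested. Their values stand only in columns that name neither line nor genotype and were not used here, and their absence from the list does not show that they stayed equal. A log2 ratio of at least 1 was reached by Pola1 and Prim1, 2 of the 10, against 1.45% of the tested genes listed with such a rise. In the plot of group means the Df/+Bl6 point lies above the control point for each of the 8 genes, by the widest distance for Pola1 and Prim1.

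**Figure D1:**
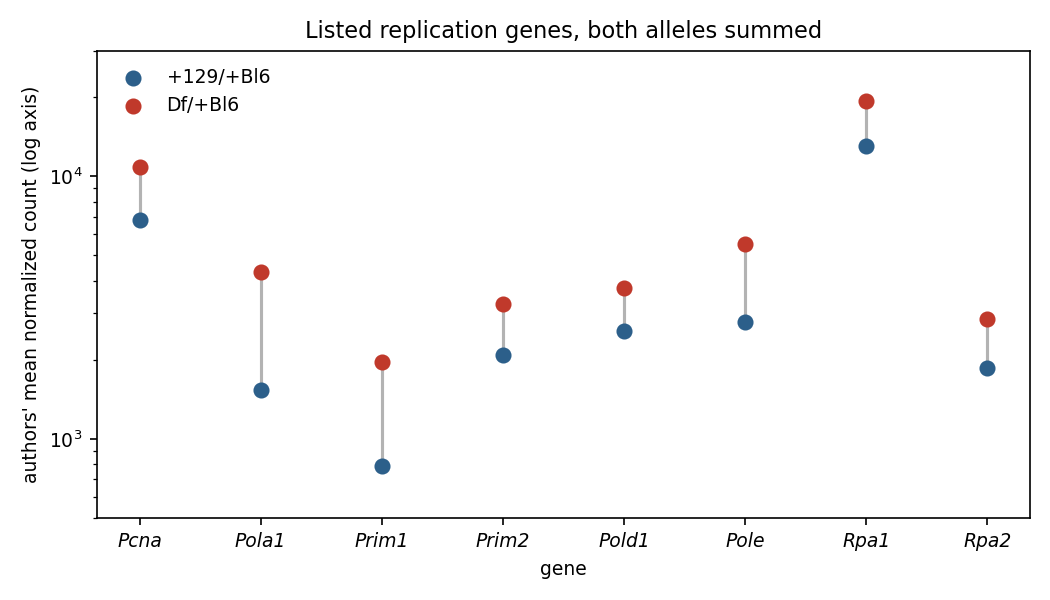
Authors' mean normalized count (log axis) of the 8 listed genes in +129/+Bl6 (blue) and Df/+Bl6 (red) MEFs, both alleles summed; grey lines join the means of a gene and no error is available. The Df/+Bl6 mean is higher for each gene, from 1.46 times the control mean for Pold1 to 2.81 times for Pola1.

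Polymerase alpha-primase held both the largest ratios and an unlisted gene. Pola1 (ENSMUSG00000006678, chrX:93304766-93632387 on GRCm38) had an authors' mean of 1536 normalized counts in +129/+Bl6 and 4311 in Df/+Bl6, a log2 ratio of 1.49, or 2.81 times the control mean. Its ratio ranked 41 among the 796 genes listed as higher. Prim1 (ENSMUSG00000025395, chr10:128015215-128030030) went from 785.4 to 1963 normalized counts, a log2 ratio of 1.32. Prim2 (ENSMUSG00000026134, chr1:33453808-33669808), which encodes the partner of Prim1 in primase, went from 2090 to 3248, a log2 ratio of 0.64. Prim2 had the smaller ratio, the log2 ratio of Prim2 minus that of Prim1 being -0.69. Divided by the longest annotated transcript, the level of Prim2 mRNA was 2.14 times that of Prim1 in +129/+Bl6 and 1.33 times in Df/+Bl6. Pola2 (ENSMUSG00000024833, chr19:5940543-5964238) was the fourth gene of the complex and was not listed.

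Of the catalytic subunits of the main polymerases, Pole had the larger ratio. Pole (ENSMUSG00000007080, chr5:110286319-110337468) had means of 2784 normalized counts in +129/+Bl6 and 5533 in Df/+Bl6, a log2 ratio of 0.99. Pold1 (ENSMUSG00000038644, chr7:44532744-44548815) had means of 2567 and 3760 and a log2 ratio of 0.55, the smallest of the 8, and 4.90% of the 796 genes listed as higher had a smaller one. Per kb of longest transcript, the level of Pole was 0.523 times that of Pold1 in +129/+Bl6 and 0.710 times in Df/+Bl6.

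The clamp and the single-strand binding proteins were listed with log2 ratios close to each other, and Pcna and Rpa1 had the highest levels per kb of the 8, 4491 and 2564 normalized counts per kb in +129/+Bl6. Pcna (ENSMUSG00000027342, chr2:132249286-132253180) had means of 6817 normalized counts in +129/+Bl6 and 10817 in Df/+Bl6, a log2 ratio of 0.67. Rpa1 (ENSMUSG00000000751, chr11:75300259-75348454) had the highest means without division by length, 13018 and 19334, with a log2 ratio of 0.57. Rpa2 (ENSMUSG00000028884, chr4:132768360-132778746) had means of 1854 and 2861 and a log2 ratio of 0.63. Since their log2 ratios were close, the proportions among these mRNAs moved little between the genotypes. Per kb, the level of Rpa1 was 2.51 times that of Rpa2 in +129/+Bl6 and 2.41 times in Df/+Bl6, and that of Pcna was 4.39 times and 4.52 times that of Rpa2. The pseudogene Pcna-ps2 is also among the tested genes and was not listed, and reads that fit Pcna and a pseudogene equally well were left out by the authors' filter on mapping location. Rpa2 lies on the chromosome of the deletion, 17.5 Mb before Rere, outside the deletion. Fen1 (ENSMUSG00000024742, chr19:10199132-10204393) was not listed.

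Set against every listed gene, the ratios of the 8 were spread unevenly. Pold1, Rpa1, Rpa2, Prim2 and Pcna had log2 ratios from 0.55 to 0.67, and 27.9% of the genes listed as higher lay under Pcna. Pole, Prim1 and Pola1 lay above 71.0%, 89.7% and 94.8% of the genes listed as higher. Few genes listed as higher had a smaller ratio than Pold1 (4.90%) or Rpa1 (8.29%), and genes that missed the FDR cut-off are not listed. Whether the gaps between Pcna and Pole and between Pole and Prim1 exceed the spread between lines was not tested.

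**Figure D2:**
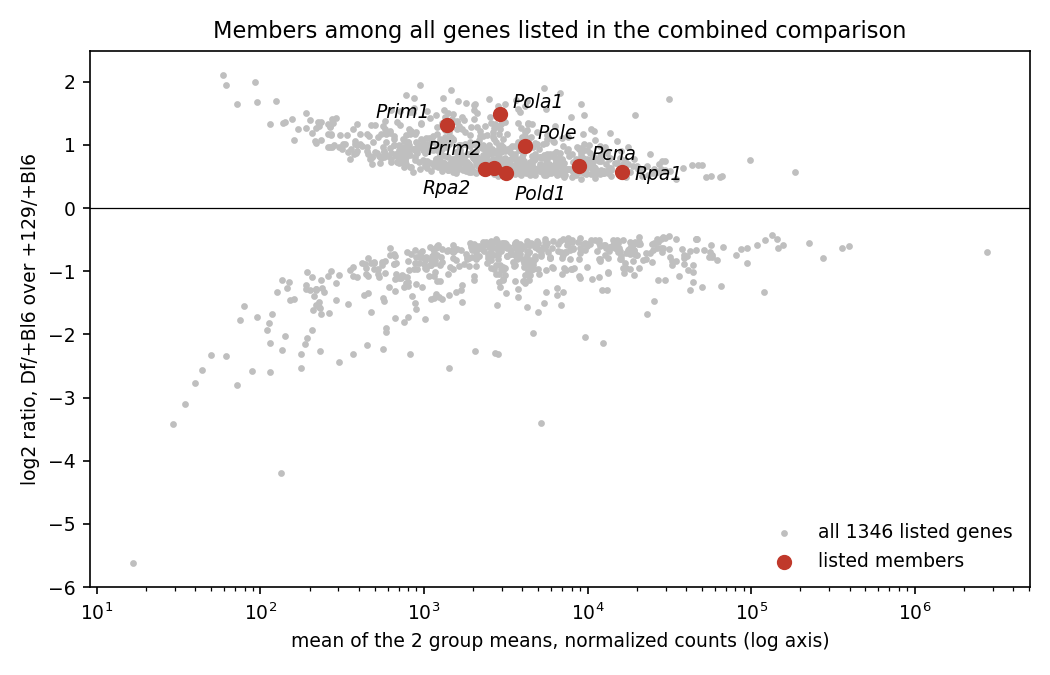
Log2 ratio of Df/+Bl6 over +129/+Bl6 against the mean of the group means (normalized counts, log axis) for all 1346 genes listed in the combined comparison (grey) with the 8 listed members in red. Pold1, Rpa1, Rpa2, Prim2 and Pcna sit near the lower edge of the genes listed as higher, and Prim1 and Pola1 well above it.

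Promoters of listed genes are shown because these genes were all listed as higher and several are known E2F targets. Whether their levels vary together between lines was not tested. Prim2 and Pole, both listed, had no RefSeq window, and the unlisted Fen1 had an extra one. RefSeq windows on GRCm38.p6, from 250 bases before a start to 50 after it, were found for 8 of the 10 genes (9 windows). They were searched on both strands for an E2F-type motif of 8 letters (TTTCCCGC or TTTGGCGC), its 7-letter form (TTCCCGC or TTGGCGC, which the longer one contains), a CCAAT box (CCAAT), an Sp-type motif (GGGCGG) and a CHR-type motif (TTTGAA). The first lines give the 100 bases before the start of Pcna (chr2:132253181-132253280, minus strand), Prim1 (chr10:128015115-128015214, plus strand) and Rpa2 (chr4:132768260-132768359, plus strand), with CCAAT boxes and 7-letter E2F-type matches on either strand in capitals.
Pcna: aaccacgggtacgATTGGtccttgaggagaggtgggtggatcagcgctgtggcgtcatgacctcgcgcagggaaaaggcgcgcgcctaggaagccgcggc
Prim1: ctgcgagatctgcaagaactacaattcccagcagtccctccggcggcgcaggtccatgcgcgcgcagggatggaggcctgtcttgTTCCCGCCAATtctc
Rpa2: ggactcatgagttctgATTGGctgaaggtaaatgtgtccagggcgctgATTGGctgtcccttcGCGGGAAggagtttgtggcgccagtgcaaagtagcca
In Prim1 the motifs share 1 base, and in Rpa2 the E2F-type match follows a pair of CCAAT boxes read on the other strand.

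For Pola1, Pold1 and Rpa1, 30 bases around a match are given, with the match in capitals. They are the 8-letter E2F-type matches of Pola1 (chrX:93632275-93632304, minus strand) and of Pold1 (chr7:44548766-44548795, minus strand), and a CCAAT box of Rpa1 (chr11:75348407-75348436, minus strand).
Pola1: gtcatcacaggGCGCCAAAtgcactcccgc
Pold1: cacggcggcgtatcttgtgGCGGGAAAagc
Rpa1: ccgcgcggtagCCAATgcggtggctatcgg
The Pola1 match begins at base -138 from the start and the Pold1 match at base 40 after it. The starts of the windows used for Pola1 and Rpa1 lie inside the gene ranges given above, and so do the matches shown for them. The 8-letter E2F-type motif was in 2 of the 9 windows, those of Pola1 and Pold1, in 1.56% of all 32851 windows of the table and in 2.66% of the 12965 windows of tested genes. The 7-letter form was in 4 of the 9 windows (Pola1, with 4 matches, Prim1, Pold1 and Rpa2) in 6.81% of all windows and in 11.4% of those of tested genes. A CCAAT box was in 5 of the 9, those of Pcna, Pola1, Prim1, Rpa1 and Rpa2, in 37.4% of all windows and in 37.2% of those of tested genes. The windows of the unlisted genes Pola2 and Fen1 held neither. The Sp-type motif was in 5 of the 9 windows, or 55.6%, close to the 60.7% of tested genes and above the 35.7% of all windows. The CHR-type motif was in 1 window, of Fen1, in 17.9% of all windows and in 12.0% of those of tested genes. A match describes the letters of the window and is no evidence of binding.

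The other genes of the replication fork were described from lists of the same complexes and their partners, also chosen with earlier results of these data known. Of 26 tested genes beyond the 10, 15 were listed as higher in Df/+Bl6 and none as lower, with a median log2 ratio of 0.94. Among polymerase subunits these were Pold3 (0.80) and Pole2 (0.94), while Pold2, Pole3 and Pole4 were not listed and Pold4 was not among the tested genes. Log2 ratios are given in parentheses. Of the clamp loader RFC, Rfc1 (0.60), Rfc4 (0.98) and Rfc5 (0.78) were listed, and Rfc2 and Rfc3 were not. Chtf18 (0.74) and Dscc1 (1.20), of the alternative loader that acts in cohesion, were listed, with Chtf8 not listed, and Atad5, which unloads PCNA, went from 736.5 to 2088 normalized counts, the largest ratio of the 23 listed fork genes. The remaining subunit of RPA, Rpa3, was not listed.

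Of 8 genes that process Okazaki fragments, 3 were listed: the ligase Lig1 (0.60) and the nucleases Dna2 (1.04) and Exo1 (1.47). Fen1 and the 4 RNase H genes Rnaseh1, Rnaseh2a, Rnaseh2b and Rnaseh2c were not. All 4 genes of fork protection and coupling were listed, namely Timeless (0.78), Tipin (0.82), Wdhd1 (1.14) and Clspn (1.26). Of 13 tested polymerase genes of repair, translesion synthesis and mitochondria, 2 were listed, namely Polq (1.56) and Rev3l (0.55). Polb, Poll, Polm, Polk, Poli, Polh, Poln, Rev1, Mad2l2, Polg and Polg2 were not listed. The 5.13% of all tested genes listed as higher applies to each of these counts.

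**Figure D3:**
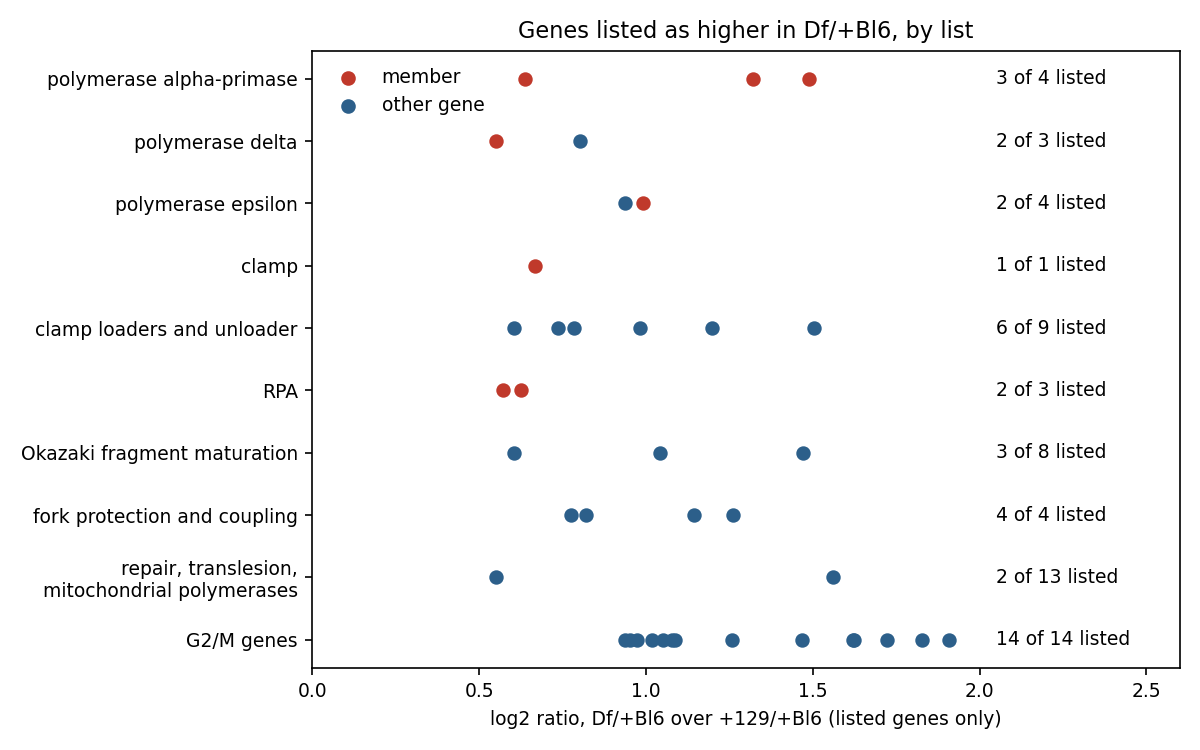
Log2 ratio of Df/+Bl6 over +129/+Bl6 for each gene listed as higher, by list, with the 8 listed members in red, other genes in blue and the number listed among those tested on the right. The fork genes start at 0.55 (Pold1), Atad5 is the highest of them, and all 14 G2/M genes lie at 0.94 or above.

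Genes beyond the fork lists were also listed. All 14 genes of a G2/M list, chosen with earlier results of these data known, were listed as higher, against 5.13% of all tested genes, with a median log2 ratio of 1.17, from Plk1 (0.94), a mitotic kinase, and Ccnb2 (0.95), a mitotic cyclin, to Cenpe (1.83) and Cenpf (1.91), which act at kinetochores. Of the members, only Pola1 and Prim1 had a ratio above that median. Whether the share of cycling cells differed between the lines on these confluent plates was not tested.

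The allelic comparisons use only reads that tell the strains apart, and their tables were normalized separately, so levels are not compared between them. In the table of the 129S5 allele, 2 of the 10 genes were listed, both as higher, against 2.54% of the 5271 genes that the adjusted p-values of that table correspond to. Pole went from 160.1 to 349.1 normalized counts (log2 ratio 1.12) and Pcna from 794.9 to 1333 (log2 ratio 0.75). In the table of the C57BL/6J allele, 1 of the 10 was listed, Pole, from 426.8 to 813.2 normalized counts (log2 ratio 0.93), against 3.16% of 5727 genes listed as higher. Pole was thus the single member listed for each allele and in the combined comparison. Which genes were tested per allele is not given, so the absence of the other members may mean that they had too few reads with strain differences or that they missed the cut-off.

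Among all fork genes 6 were listed as higher in the table of the 129S5 allele and 6 in that of C57BL/6J. These were 8 genes, of 213 listed as higher for at least 1 allele, and the 4 listed for both, of 102 such genes, were Pole, Pole2, Exo1 and Wdhd1. The log2 ratios of the 129S5 and C57BL/6J alleles were 1.02 and 1.08 for Pole2, 1.40 and 1.73 for Exo1, and 1.23 and 1.14 for Wdhd1. None was listed as lower in Df/+Bl6 at either allele, a call made for 2.33% of the genes tested on 129S5 reads and 2.53% of those tested on C57BL/6J reads. Differences between the alleles were not tested.

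**Figure D4:**
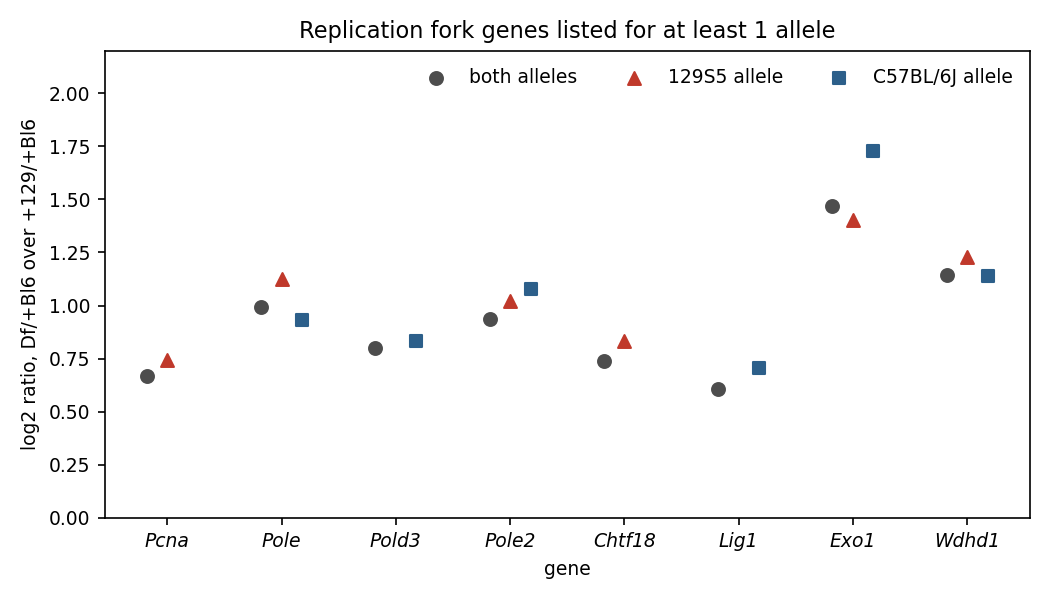
Log2 ratio of Df/+Bl6 over +129/+Bl6 for the 8 fork genes listed for at least 1 allele, in the combined comparison (grey circles), for the 129S5 allele (red triangles) and for the C57BL/6J allele (blue squares); a missing symbol means that the table does not list the gene. All points are above 0, and the ratios of Pole are 0.99, 1.12 and 0.93.

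Transcript length differed between the listed and the unlisted genes. The longest transcript in the GENCODE M1 annotation had a median of 3421 nucleotides for the 23 listed fork genes, members included, and 1769 for the 13 tested and unlisted ones. With a limit of 3000 nucleotides, chosen after the values were seen, all 14 longer fork genes were listed and 9 of the 22 shorter ones. Of the members, Pola1, Pold1, Pole and Rpa1 were longer and all listed, while Pcna, Prim1, Prim2 and Rpa2 were listed among the 6 shorter ones, and Pola2 (2424 nucleotides) and Fen1 (2373) were not. The same direction held over all tested genes with a length, since 7.34% of those of at least 3000 nucleotides and 3.48% of the shorter ones were listed as higher. The share listed as lower ran the other way, with 57 of 814 genes under 1000 nucleotides and 2.81% of those over 6000. Reads per gene grow with transcript length, and the part of length in these calls was not tested.

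**Figure D5:**
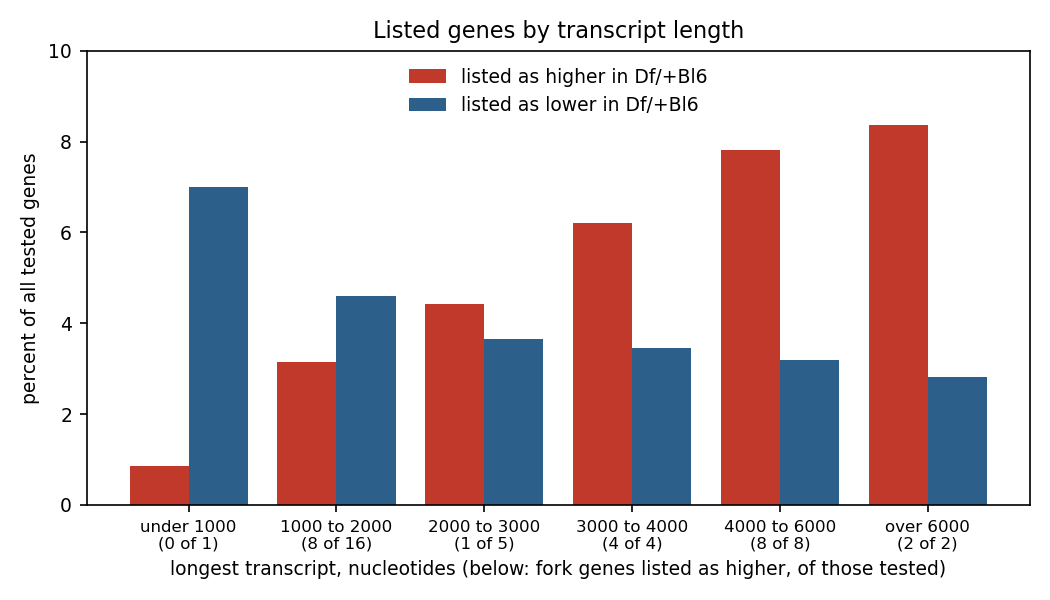
Percent of all tested genes listed as higher (red) or lower (blue) in Df/+Bl6, by the length of the longest transcript in nucleotides; the counts under the axis give the fork genes listed as higher among those tested. The share listed as higher rises from 0.860% to 8.36% with length while the share listed as lower falls.

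Other values that moved with the genotype stand beside these results. Of markers of Schwann or neural crest cells, Sox10 (log2 ratio -1.53), S100b (-2.32) and Erbb3 (-1.09) were lower in Df/+Bl6, a call made for 3.54% of all tested genes. No share of the marker list is given, since it is reported here only in part. The summed means of these 3 lower genes were 1222 normalized counts in +129/+Bl6 and 368.6 in Df/+Bl6. None of the 18 tested markers of macrophages, endothelium, epithelium or skeletal muscle was listed. Of 8 fibroblast markers, all among the tested genes, Fn1 was listed, as lower (-0.69). On the X chromosome, where Pola1 lies, 39 of 544 tested genes with a position were listed as higher (7.17%) and 9 as lower (1.65%), against 5.10% and 3.72% elsewhere. Xist was tested and not listed, and Ddx3y, Eif2s3y, Kdm5d and Uty were not among the tested genes. The authors left out genes with few reads on each allele, so the absence of these genes does not give the sex of the embryos. The part of cell makeup or embryo sex in the ratios of the replication genes was not tested.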

How the data were processed

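Stranded polyA+ libraries of 7 MEF lines (4 Df/+Bl6, 3 +129/+Bl6) were sequenced as paired ends. The authors aligned the reads without mismatches with GSNAP to the C57BL/6J transcriptome (GRCm38/mm10) and a 129S5/SvEvBrd version of it, using each gene's longest transcript, counted pairs with a single best location whose mates hit the same gene, and left out genes with few reads on each allele. The deposited signal values are mean normalized counts per genotype, which the authors made with DESeq size factors. The 3 tables hold the genes past an FDR of 0.05, which was checked in the files. The authors' deposited fold changes were not used. Their deposited p-values and adjusted p-values served here to check that filter and to count the genes tested (the largest product of adjusted p and rank over p, tested on simulated data), and are not printed. Of a further deposited file, the gene identifiers served as the list of tested genes, and its 9 unnamed columns were not used.

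Log2 ratios were computed from the means without a pseudocount. Symbols came from the GENCODE identifiers given, and 2 of the 96 genes on the lists (Primpol and Adgre1) had none. Lengths and the deletion interval came from GENCODE M1 (NCBI37/mm9), gene positions and promoters from RefSeq (GRCm38.p6). The members and gene lists were chosen with earlier results of these data known. Genes named were the 10 members, the listed genes of the other lists, and the 2 largest and 2 smallest ratios of the G2/M list. Some marker genes are not reported here. Other genes named were chosen after their values were seen. Python 3.11.15, numpy 2.4.6, pandas 2.3.3 and matplotlib 3.10.9 were used. Alternatives are given in the closing section.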

Additional observations from a re-analysis of the deposited data

How the results depend on the processing

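With a mean of at least 1000 normalized counts the combined comparison still held 8 listed members, and with a pseudocount of 10 the median log2 ratio was again 0.65. The median stayed between 0.64 and 0.67 when each listed member was left out in turn. Where a log2 ratio of at least 1 was also required, the number of members listed was 2 in the combined comparison, 1 in the 129S5 table and 0 in the C57BL/6J table. With a mean of at least 1000 it was 1 in the 129S5 table and 0 in the C57BL/6J table, as the allelic means of Pole are below that level. Minus the median of all listed genes, higher and lower together, the median log2 ratio of the members was 0.044. The median subtracted was 0.61, over 796 genes listed as higher and 550 listed as lower. The genes listed as higher alone had a median of 0.80, above that of the members. The number of member windows with an E2F-type motif was 2 with 8 letters, 4 with 7 letters and 1 when only the bases before the start were searched. Leaving out each line in turn, and any fit over lines or pairs of lines, was not run, since no column carries the name of a line. The sequencing depth of the lines is unknown, and the levels of members that were not listed, held in columns without names, were not used here.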

Other observations

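The motifs of the replication gene promoters were counted in the promoter windows of all genes, by their call in the combined comparison, which is a description made after the values of the members were seen. The 8-letter E2F-type motif was in 10.1% of the 673 windows of genes listed as higher in Df/+Bl6, 2.11% of the 521 windows of genes listed as lower and 2.26% of the 11771 windows of tested genes that were not listed. For the CCAAT box these shares were 50.2%, 34.7% and 36.6%, and for the CHR-type motif 23.6%, 9.98% and 11.4%. The Sp-type motif differed less, with 68.8%, 61.4% and 60.2%. The replication genes did not share all of these differences. Of the 14 windows of other fork genes listed as higher, 4 (28.6%) held a CCAAT box, 0 a CHR-type motif and 9 an Sp-type motif. For the 6 windows of listed members these numbers were 5, 0 and 4. Windows were found by symbol for 10115 of the tested genes. Among the fork genes beyond the 10 members that were listed as higher, 8 of 14 windows held the 7-letter E2F-type motif, which was in 27.2% of the windows of all genes listed as higher, 7.87% of those listed as lower and 10.7% of those not listed. In these 8 windows no match lay wholly before the annotated start, whereas 137 of the 183 matching windows of all genes listed as higher held such a match.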
